A study of Saccharomyces cerevisiae with 35 samples.

Results

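The 56 genes described here encode the proteins of the small (40S) subunit of the cytoplasmic ribosome of *Saccharomyces cerevisiae*, from *RPS0A* to *RPS31*. They were taken by systematic name and not by a measured value, though earlier results of these data were known. They make up 56 of the 12131 features counted and 56 of the 6575 nuclear ORFs. RNA came from whole colonies of strain F45 and its derivatives after 4 d of growth on rich glucose plates, with several colonies pooled for each of 35 libraries. The first batch held 4 libraries each of 6 groups: a strain with a second copy of chromosome XV (disome XV), a strain with a second copy of chromosome XVI (disome XVI), a chromosome XVI disome in which 1 of the 2 *DIG1* copies was deleted (hemizygous strain), euploid F45 carrying *DIG1* on a low-copy plasmid (*DIG1* plasmid), euploid F45 carrying an empty plasmid, and euploid F45. The second batch held 4 libraries each of *flo11*Δ and *cis3*Δ, each from 2 clones with 2 libraries per clone, and 3 libraries of F45.

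All of these strains are derived from 1 haploid *MAT***a** background that lacks *HO*. Both copies of a doubled chromosome are identical, apart from the *DIG1* deletion and its marker on 1 copy in the hemizygous strain. Each disome, the hemizygous strain and each plasmid strain is represented by a single strain, the 2 plasmids are listed under different names, and the deletions and the plasmids all bear a *kanMX* type resistance marker. F45 of the first batch served as the control for 4 comparisons and F45 of the second batch for 2, so those comparisons are not independent of each other. The empty plasmid strain was the reference for the *DIG1* plasmid strain and was itself compared with F45, so those comparisons are not independent either. No label says that the libraries of a group came from separate cultures, so the p-values measure the spread between these libraries, which may be technical.

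The small subunit binds the mRNA and decodes it, and its proteins are needed in about equal amounts. Yeast transcribes its ribosomal protein genes as a group, mainly through the factors Rap1, Fhl1 and Ifh1, and strongly raises or lowers the group with growth and stress. Most of the genes exist as a pair of paralogs left from an ancient genome duplication, and a few of the proteins act on their own messages. In yeast, Rps28 protein binds the *RPS28B* mRNA and, with the decapping activator Edc3, promotes its decay.

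Of the 56 genes, 48 form 24 paralog pairs and 8 have no paralog. The 56 genes lie on 14 chromosomes. Of these genes 7 lie on chromosome XV (*RPS7A*, *RPS10A*, *RPS12*, *RPS15*, *RPS19A*, *RPS28A* and *RPS30B*) and 3 on chromosome XVI (*RPS6A*, *RPS9A* and *RPS23B*), and 46 lie elsewhere. The coding sequences are 171 to 786 bases long, and 36 of the genes have an intron within the coding sequence. The 2 copies of a pair share between 84.3% and 99.2% of their coding bases (median 92.8%), and 9 pairs encode identical proteins. Reads of near-identical copies were not filtered out by mapping quality, so the sharing of sequence sets how well 2 copies can be told apart. In 9 pairs no coding stretch of 51 bases, the read length of the first batch, was shared, whereas over 30% of such stretches were shared in *RPS4*, *RPS6* and *RPS24*, among others.

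The 3 pairs on which the comparisons of copy number turn are shown here, because their copies can be separated to different degrees. Sequences were read from the R64 genome, run from the start codon, and have capitals at bases that differ between the 2 copies. *RPS28A* (YOR167C, chrXV:648804-649007, minus strand) and *RPS28B* (YLR264W, chrXII:673131-673334, plus strand) have no intron, differ at 24 of 204 coding bases, and share no stretch of 51 bases.
RPS28A: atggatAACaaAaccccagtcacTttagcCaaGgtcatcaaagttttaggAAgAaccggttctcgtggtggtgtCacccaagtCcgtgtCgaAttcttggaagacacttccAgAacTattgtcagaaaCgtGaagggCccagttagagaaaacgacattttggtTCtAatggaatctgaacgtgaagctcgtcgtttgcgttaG
RPS28B: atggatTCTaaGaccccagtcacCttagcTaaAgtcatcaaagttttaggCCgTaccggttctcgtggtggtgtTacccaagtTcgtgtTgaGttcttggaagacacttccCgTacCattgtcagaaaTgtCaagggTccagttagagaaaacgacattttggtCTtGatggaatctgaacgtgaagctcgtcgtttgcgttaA

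*RPS6A* (YPL090C, chrXVI:377291-378395, minus strand) and *RPS6B* (YBR181C, chrII:591712-592774, minus strand) each have an intron. They differ at 3 of their first 240 coding bases, and 71.7% of the 51-base stretches of either coding sequence also occurred in the other gene.
RPS6A: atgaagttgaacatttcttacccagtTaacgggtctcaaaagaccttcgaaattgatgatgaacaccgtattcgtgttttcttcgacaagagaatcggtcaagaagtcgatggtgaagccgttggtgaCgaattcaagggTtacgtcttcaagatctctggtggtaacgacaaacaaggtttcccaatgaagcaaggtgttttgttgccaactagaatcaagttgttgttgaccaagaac
RPS6B: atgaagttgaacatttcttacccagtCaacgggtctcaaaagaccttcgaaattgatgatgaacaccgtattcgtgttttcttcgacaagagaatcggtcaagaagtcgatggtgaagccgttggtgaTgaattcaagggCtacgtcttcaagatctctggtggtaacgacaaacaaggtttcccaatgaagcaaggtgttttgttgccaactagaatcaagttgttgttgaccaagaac

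*RPS23A* (YGR118W, chrVII:726974-727730, plus strand) and *RPS23B* (YPR132W, chrXVI:794965-795767, plus strand) also have an intron. They differ at 8 of their first 240 coding bases, and 13.9% of the 51-base coding stretches also occurred in the other gene.
RPS23A: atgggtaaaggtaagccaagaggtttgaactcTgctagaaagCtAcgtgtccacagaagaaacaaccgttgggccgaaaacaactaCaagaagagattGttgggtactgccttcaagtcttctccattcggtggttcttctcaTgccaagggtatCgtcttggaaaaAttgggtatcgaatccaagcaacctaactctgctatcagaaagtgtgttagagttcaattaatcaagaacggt
RPS23B: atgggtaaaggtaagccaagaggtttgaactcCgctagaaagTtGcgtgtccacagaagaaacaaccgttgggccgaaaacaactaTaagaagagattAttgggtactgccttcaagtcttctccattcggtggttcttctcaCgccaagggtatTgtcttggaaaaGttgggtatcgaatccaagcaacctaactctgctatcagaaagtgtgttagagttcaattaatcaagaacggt

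A common binding motif of Rap1, ACCCNNACA on either strand, occurred in 4 of the 56 windows from 250 bases before to 50 bases after the start codon (7.14%). It occurred in 169 of 5898 such windows of all ORFs (2.87%) and in 8 of 81 windows of large subunit genes (9.88%). The window is placed on the start codon and not on the start of transcription, and introns in the leader were not removed. The matches of *RPS1A*, *RPS13* and *RPS19A* lay near the upstream end of the window, and that of *RPS10B* lay nearer the start codon. Bases further upstream were not searched, so these percentages do not give the share of promoters that hold a Rap1 site.

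The libraries held from 6503076 to 37823857 counts in the first batch and from 11565108 to 25104790 in the second, and every small subunit gene had at least 762 counts in every library. Levels are given as CPM, counts normalised to a common library size, with the scaling set by nuclear ORFs and, for the first batch, by those on the other 14 chromosomes only. The targeted genes followed their labels: *DIG1* averaged 304 CPM in the *DIG1* plasmid strain and 71.2 CPM in the empty plasmid strain, and 60.2 CPM in the hemizygous strain and 137 CPM in disome XVI. *FLO11* averaged 4.62 CPM in *flo11*Δ and 19102 CPM in F45, and *CIS3* averaged 0.276 CPM in *cis3*Δ and 769 CPM in F45. No pair of libraries of a group agreed within sampling noise.

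The small subunit genes together took the largest share of nuclear ORF counts in disome XV. That share was 5.48% ± 0.78 in disome XV, 4.05% ± 0.26 in disome XVI, 4.04% ± 0.35 in the hemizygous strain, 3.88% ± 0.24 in the *DIG1* plasmid strain, 3.61% ± 0.11 in the empty plasmid strain and 2.82% ± 0.13 in F45 (SD, n = 4 each). All 20 other libraries of the first batch lay above the 4 of F45, and all 4 of disome XV lay above the rest. In the second batch the share was 2.19% ± 0.20 in *flo11*Δ (SD, n = 4), 2.44% ± 0.42 in *cis3*Δ (n = 4) and 2.12% ± 0.14 in F45 (n = 3), and these ranges overlap. A share of RNA from whole colonies cannot tell more RNA per cell from more cells of a kind.

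**Figure D1:**
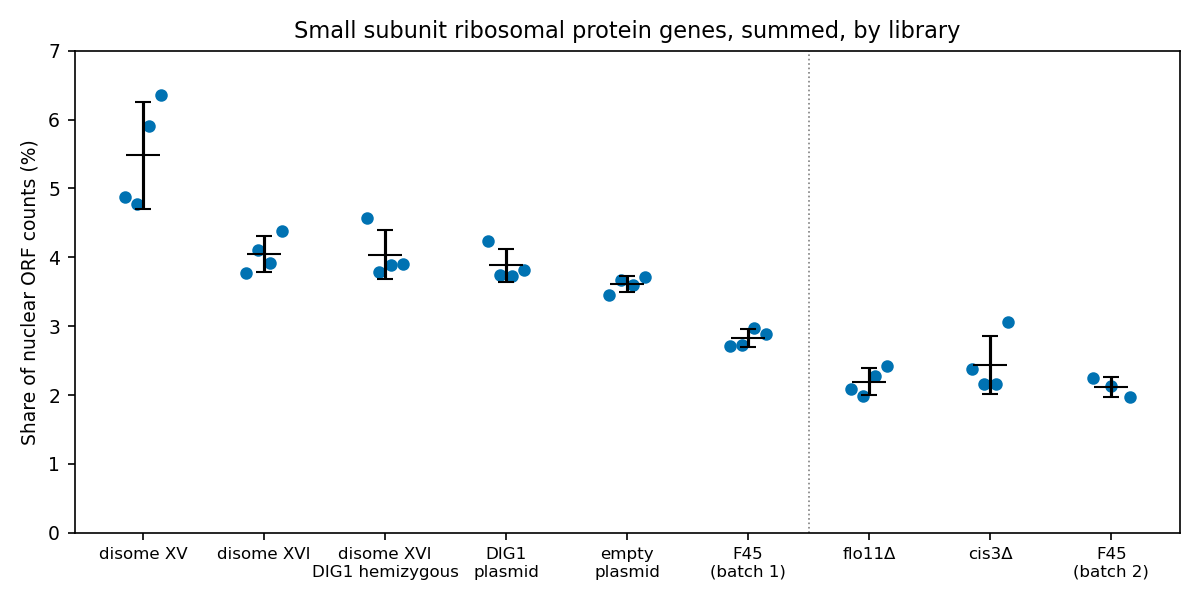
Share of nuclear ORF counts (y axis, percent) that fell on the 56 small subunit genes, with 1 point per library, and the mean and SD of each group (x axis). Disome XV lies between 4.78% and 6.36% and F45 of the first batch between 2.71% and 2.98%, while the groups right of the dotted line, sequenced in the second batch, overlap.

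The genes spanned a wide range of levels. Per kilobase of coding sequence, *RPS31*, which encodes a ubiquitin fusion, had the highest level in F45 of the first batch (4426 CPM per kb) and *RPS7B* the lowest (210 CPM per kb), a 21.0-fold range around a median of 1236 CPM per kb. *RPS7B* was the lowest of the 56 in all 9 groups. The highest was *RPS31* in 5 of the 6 groups of the first batch, *RPS12* in disome XV (9808 CPM per kb) and *RPS30A* in the 3 groups of the second batch. Coding length is shorter than the transcript, which affects short genes such as *RPS30A* most.

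Disome XV was compared with F45 to ask how the genes respond to a second chromosome XV. Changes are given per gene copy, as log2 fold changes ± SE from edgeR's quasi-likelihood test, with a model offset for the doubled chromosome, and a change is called at an adjusted p under 0.01. Of the 56 genes, 55 rose and 0 fell, whereas 23.1% of all features tested rose and 28.2% fell. The exception was *RPS28B*. By DESeq2 and by the likelihood ratio test of edgeR 55 rose and 0 fell as well, and no gene had a change below 0 at an unadjusted p under 0.05. The median change was 0.86, against −0.05 over all features, and 11 genes rose more than 2-fold. The 46 genes outside both chromosomes had a median of 0.86 as well, with 45 higher. In 55 genes the 4 disome libraries all lay above the 4 of F45, an arrangement that 22.9% of all features showed. The 81 genes of the large subunit were close to this, with 78 higher, 0 lower and a median of 0.86.

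The largest rises per copy in disome XV were in *RPS26B* and *RPS15*. *RPS26B* encodes 1 of the 2 copies of Rps26, which lines the mRNA exit channel. It had 878, 881, 1127 and 1260 CPM in disome XV, against 311, 329, 348 and 329 CPM in F45, a change of 1.66 ± 0.09 (adjusted p = 2.07e-14). Its paralog *RPS26A* had 1174, 1179, 1498 and 1644 CPM in disome XV and 493, 502, 620 and 558 CPM in F45. In both copies the 2 groups were far apart. *RPS15*, which lies on chromosome XV and encodes a protein near the decoding site, had 2423, 2547, 3024 and 3350 CPM in disome XV, against 525, 546, 563 and 573 CPM in F45. This was a 5.14-fold rise as measured and a change of 1.36 ± 0.09 per copy (adjusted p = 2.47e-13). The smallest rise that passed the test was in *RPS22B*, with 278, 291, 291 and 298 CPM in disome XV and 247, 256, 245 and 248 CPM in F45 (0.22 per copy). The counted interval of *RPS22B* also holds the small nucleolar RNA gene *SNR44*.

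*RPS28B* stood apart from its paralog in disome XV. *RPS28A*, on the doubled chromosome, had 1499, 1288, 1483 and 1734 CPM in disome XV, against 456, 499, 514 and 449 CPM in F45. This was 3.13-fold as measured and 0.65 ± 0.07 per copy (adjusted p = 1.35e-08). *RPS28B*, on chromosome XII, had 164, 160, 192 and 210 CPM in disome XV, against 175, 170, 193 and 184 CPM in F45. The libraries of *RPS28B* overlap entirely, and the change of 0.01 ± 0.08 had a 95% interval from −0.15 to 0.17 (adjusted p = 0.913), below the 0.86 of the median gene. The log2 ratio of *RPS28A* to *RPS28B* was therefore 3.05 ± 0.10 in disome XV and 1.41 ± 0.11 in F45 (SD, n = 4 each), while the pair summed was 2.55-fold higher. In the other strains *RPS28B* was above F45: it had 246, 248, 264 and 298 CPM in disome XVI and 302, 250, 286 and 292 CPM in the hemizygous strain. It had 238, 215, 222 and 232 CPM with the *DIG1* plasmid and 206, 216, 218 and 229 CPM with the empty plasmid. *EDC3* rose slightly in disome XV, with 76.1 ± 4.0 CPM there and 64.5 ± 4.6 CPM in F45 (0.25 ± 0.06, adjusted p = 0.000309).

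**Figure D2:**
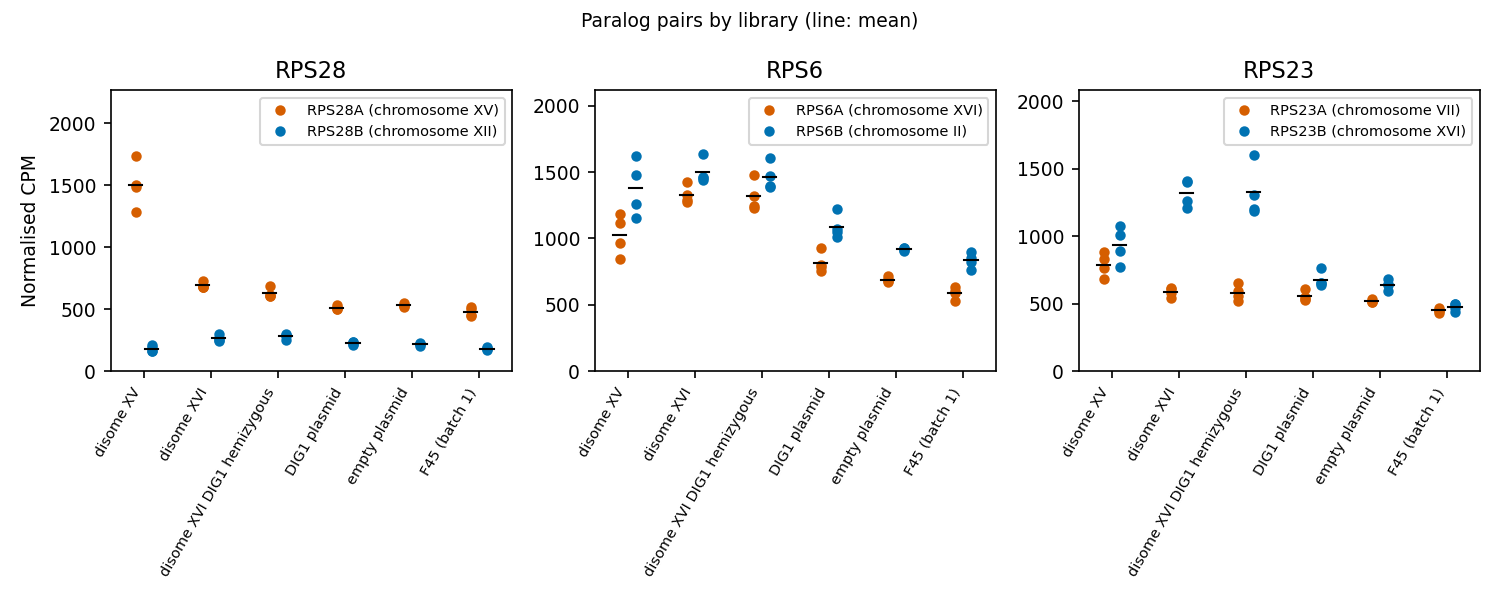
Normalized CPM (y axis) of both copies of *RPS28*, *RPS6* and *RPS23* in the 6 groups of the first batch (x axis), with 1 point per library and a line at the mean. *RPS28A* stands between 1288 and 1734 CPM in disome XV while *RPS28B* stays between 160 and 210 CPM, and *RPS6A* and *RPS6B* are both high in the chromosome XVI disomes although only *RPS6A* lies on that chromosome.

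All 7 genes on chromosome XV were higher in disome XV than in F45 as measured, as were 83.5% of all tested ORFs of that chromosome. Their median was 3.64-fold, with single genes between 3.08-fold (*RPS7A*) and 5.14-fold (*RPS15*). The median ORF of chromosome XV was 1.89-fold higher. The 46 small subunit genes elsewhere had a median of 1.81-fold and the 3 on chromosome XVI of 1.75-fold, so that the genes on the doubled chromosome stood about where 2 times the rise of the others would place them. By single libraries the median of the 7 ranged from 2.85-fold to 4.28-fold, and that of the other 46 from 1.58-fold to 2.08-fold. The pairs with 1 copy on chromosome XV rose less when both copies were summed, by 2.88-fold for *RPS7*, 2.98-fold for *RPS10*, 2.70-fold for *RPS19*, 2.55-fold for *RPS28* and 2.36-fold for *RPS30*. *RPS12* and *RPS15*, which have no paralog, rose 3.39-fold and 5.14-fold. *RPS12* had 3952, 3496, 4525 and 4976 CPM in disome XV, against 1201, 1240, 1371 and 1189 CPM in F45.

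The paralogs of these genes, on chromosomes that were not doubled, did not fall. *RPS7B* rose by 1.00 ± 0.10, *RPS19B* by 1.05 ± 0.09, *RPS10B* by 0.77 ± 0.09 and *RPS30A* by 0.69 ± 0.09 in disome XV. Only *RPS28B* showed no detected rise among the 5. In 23 of the 24 pairs both copies rose in disome XV, and in 15 pairs the changes of the 2 copies were within 0.25 of each other, with a median difference of 0.17. The pair that differed most was *RPS28*, by 0.63.

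**Figure D3:**
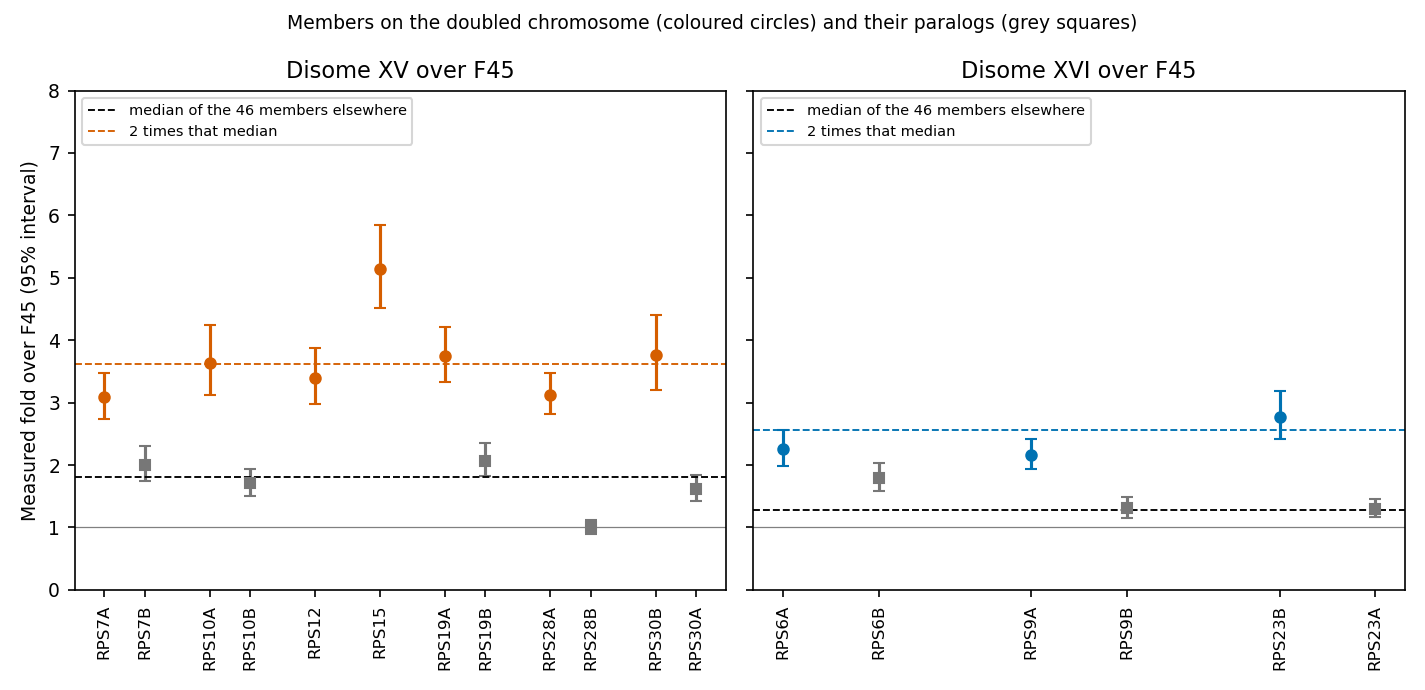
Measured fold over F45 (y axis, with its 95% interval) of the small subunit genes on the doubled chromosome (circles) and of their paralogs elsewhere (squares), for disome XV on the left and disome XVI on the right. The black dashed line is the median of the 46 genes elsewhere (1.81 and 1.28) and the coloured one is 2 times that median. *RPS15* lies above its line, *RPS28B* lies at 1, and *RPS6B* lies above the black line.

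The same question was asked of chromosome XVI. Relative to F45, 44 of the 56 genes rose in disome XVI and 0 fell, whereas 21.6% of all features rose and 24.4% fell. DESeq2 and the likelihood ratio test gave the same counts, and 1 gene, *RPS27A*, had a change below 0 at an unadjusted p under 0.05. The median change was 0.37 per copy, against −0.02 over all features, and no gene rose more than 2-fold per copy. The 12 genes that were not called included *RPS6A* and *RPS9A*, 2 of the 3 on the doubled chromosome. The large subunit had 67 of 81 genes higher, 1 lower and a median of 0.38. After *RPS6B*, the largest rise was in *RPS26A*, with 834, 959, 919 and 993 CPM in disome XVI, against 493, 502, 620 and 558 CPM in F45 (0.77 ± 0.10, adjusted p = 1.84e-07).

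All 3 genes on chromosome XVI were higher in disome XVI as measured, as were 85.2% of the tested ORFs of that chromosome. Their median was 2.26-fold, that of the 46 genes elsewhere 1.28-fold and that of all ORFs on chromosome XVI 1.98-fold. *RPS23B*, which encodes a protein of the decoding centre, had 1264, 1399, 1211 and 1411 CPM in disome XVI, against 495, 441, 500 and 470 CPM in F45. This was 2.77-fold as measured and 0.47 ± 0.10 per copy (adjusted p = 0.000152). *RPS23A* had 545, 617, 577 and 607 CPM in disome XVI and 447, 431, 471 and 453 CPM in F45 (0.38 ± 0.08). The log2 ratio of *RPS23A* to *RPS23B* was −1.17 ± 0.07 in disome XVI and −0.08 ± 0.05 in F45 (SD, n = 4 each). *RPS9A*, a gene of the body of the subunit, had 443, 481, 473 and 496 CPM in disome XVI, against 189, 217, 245 and 224 CPM in F45. Per copy this was 0.11 ± 0.08 (adjusted p = 0.227), while *RPS9B* rose by 0.39 ± 0.09, with 942, 1026, 959 and 1115 CPM in disome XVI and 766, 739, 801 and 777 CPM in F45.

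In *RPS6* the copy that was not doubled rose more per copy. Rps6 is the small subunit protein that is phosphorylated downstream of TOR signalling. *RPS6A*, on chromosome XVI, had 1287, 1326, 1271 and 1426 CPM in disome XVI, against 602, 528, 631 and 589 CPM in F45 (2.26-fold as measured, 0.18 ± 0.09 per copy, adjusted p = 0.0893). *RPS6B*, on chromosome II and present in 1 copy, had 1439, 1463, 1454 and 1636 CPM in disome XVI, against 819, 765, 897 and 854 CPM in F45. Its change of 0.84 ± 0.09 was the largest of the 56 (adjusted p = 3.55e-09), and the log2 ratio of *RPS6A* to *RPS6B* was −0.17 ± 0.03 in disome XVI and −0.51 ± 0.04 in F45. The 2 copies share 71.7% of their 51-base coding stretches, so how the counts divide between them is uncertain. The sum of both copies does not depend on that division and was 1.99-fold higher in disome XVI (SD 0.11). By comparison the sum was 2.06-fold higher for *RPS23* and 1.5-fold higher for *RPS9*. Over all 24 pairs, both copies rose in disome XVI in 14, 1 copy in 8 and neither in 2.

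The direct comparison of the disomes tests whether the rise was larger in disome XV. Per gene copy, 50 of the 56 genes were higher in disome XV than in disome XVI and 1 was lower, against 19.4% and 19.7% of all features, with a median difference of 0.51. The large subunit had 71 of 81 genes higher, 2 lower and a median of 0.49. The 1 lower gene was *RPS28B* (−0.53 ± 0.08, adjusted p = 2.17e-06), and its libraries did not overlap between the disomes. The largest differences upward were in *RPS26B* (0.94 ± 0.09) and *RPS29A* (0.80 ± 0.11), a gene for a small protein of the head of the subunit. *RPS29A* had 499, 447, 614 and 690 CPM in disome XV, against 289, 336, 320 and 349 CPM in disome XVI. The 5 genes that were not called were *RPS3*, *RPS6B*, *RPS12*, *RPS22B* and *RPS28A*. *RPS6* was the pair that differed most, with *RPS6A* higher by 0.63 ± 0.09 per copy and *RPS6B* at −0.12 ± 0.09. As measured, all 7 genes on chromosome XV were higher in disome XV (90.4% of the ORFs there) and all 3 on chromosome XVI were lower (90.7%).

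**Figure D4:**
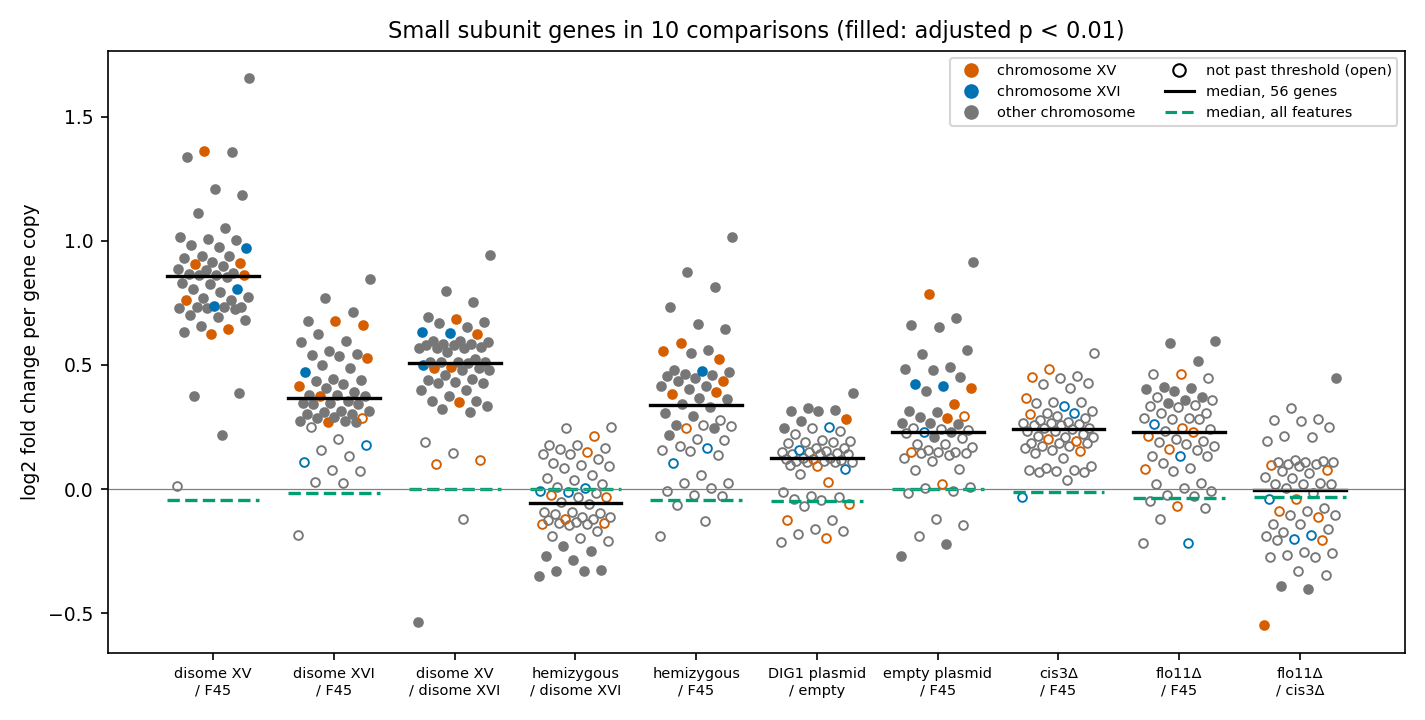
The log2 fold change per gene copy (y axis) of each of the 56 genes in 10 comparisons (x axis, the group named first over the second). Colours give the chromosome, filled points passed the threshold, the black line is the median of the 56 genes and the green dashed line that of all features. All points lie above 0 in disome XV, and the only filled point below 0 in the comparison of the disomes is *RPS28B*.

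The hemizygous strain was compared with disome XVI to ask what loss of 1 *DIG1* copy changes. Against disome XVI, 0 genes were higher and 8 were lower by edgeR, whereas 9.76% of all features were higher and 10.4% lower, so the share of lower genes (8 of 56) was near the background. Of the 56 genes, 2 had a change above 0 at an unadjusted p under 0.05. DESeq2 called 0 genes higher and 9 lower. The genes that fell were *RPS0B*, *RPS2*, *RPS4A*, *RPS4B*, *RPS13*, *RPS14A*, *RPS14B* and *RPS22A*. *RPS0B*, which encodes a protein needed for subunit maturation, had 910, 825, 867 and 879 CPM in the hemizygous strain, against 1102, 991, 1155 and 1195 CPM in disome XVI (−0.35 ± 0.07, adjusted p = 0.000174). *RPS2*, which lies at the mRNA entry channel, had 1959, 1788, 1880 and 1875 CPM in the hemizygous strain, against 2314, 2205, 2387 and 2531 CPM in disome XVI (−0.33 ± 0.07, adjusted p = 0.000356). The groups did not overlap in any of the 8 genes. Of the 56 genes, 9 had all hemizygous libraries below all of disome XVI, an arrangement that 15.1% of all features showed. The paralog *RPS0A* had a change of −0.21 ± 0.06 (adjusted p = 0.0118). Without the hemizygous library whose column header holds YSEQ165 the number lower was 5, and fitted on the 2 groups alone it was 5.

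Against F45 the hemizygous strain had 34 genes higher and 0 lower by edgeR, while 22.9% of all features were higher and 27% lower, with a median change of 0.34. DESeq2 called 39 higher and 1 lower, and 1 gene had a change below 0 at an unadjusted p under 0.05. The 3 genes on chromosome XVI were again higher as measured (84.7% of the ORFs there), with a median of 2.24-fold, against 1.23-fold for the 46 genes elsewhere. *RPS26A* rose most, with 1209, 1041, 1094 and 1046 CPM in the hemizygous strain, against 493, 502, 620 and 558 CPM in F45 (1.01 ± 0.10, adjusted p = 1.4e-09). *RPS26B* rose by 0.87 ± 0.09. The *RPS6* pair had the same order as in disome XVI, with *RPS6A* at 1478, 1242, 1316 and 1227 CPM in the hemizygous strain and 0.16 ± 0.09 per copy. *RPS6B* had 1608, 1396, 1469 and 1387 CPM in the hemizygous strain and rose by 0.81 ± 0.09.

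The *DIG1* plasmid strain was compared with the empty plasmid strain to ask what differs with added *DIG1*. Each is a single strain and the plasmids are listed under different names, so *DIG1*, plasmid and strain cannot be told apart. Of the 56 genes 8 were higher and 0 were lower, against 12.7% and 15.2% of all features. The share of genes called higher (8 of 56) was thus near the background. The median change was 0.12, against −0.05 over all features. Of the 56 estimates 42 were above 0, and of all 8097 features 3531 were. In 29 genes all *DIG1* plasmid libraries lay above all empty plasmid libraries, an arrangement that 16.6% of all features showed. DESeq2 called 14 genes higher and 0 lower, and 2 of the 56 had a change below 0 at an unadjusted p under 0.05. The genes that rose were *RPS0A*, *RPS0B*, *RPS2*, *RPS3*, *RPS4A*, *RPS7A*, *RPS13* and *RPS22A*. Of these, *RPS0A* and *RPS22A* were lower with the empty plasmid than in F45. *RPS0A* had 820, 840, 822 and 858 CPM with the *DIG1* plasmid, and 785, 815, 802 and 837 CPM in F45. *RPS22A* had 766, 782, 731 and 800 CPM with the *DIG1* plasmid, and 685, 737, 730 and 727 CPM in F45. *RPS4A* had 1244, 1175, 1159 and 1163 CPM with the *DIG1* plasmid, against 946, 929, 863 and 890 CPM with the empty plasmid (0.39 ± 0.06, adjusted p = 2.16e-05), and shares 46.1% of 51-base coding stretches with *RPS4B*. *RPS3*, which helps to unwind and hold the mRNA, had 1713, 1421, 1434 and 1448 CPM with the *DIG1* plasmid, against 1234, 1235, 1171 and 1161 CPM with the empty plasmid (0.33 ± 0.08, adjusted p = 0.00118). Neither pair of groups overlaps. The pair that differed most was *RPS7*. *RPS7A* had 712, 642, 629 and 627 CPM with the *DIG1* plasmid and 505, 543, 530 and 566 CPM with the empty plasmid (0.28 ± 0.08), a call that was lost in 5 of the 8 fits that left out a library. *RPS7B* had 164, 166, 181 and 166 CPM with the *DIG1* plasmid and 175, 203, 191 and 191 CPM with the empty plasmid (−0.17 ± 0.10, adjusted p = 0.171). The *DIG1* plasmid libraries held 8400452 to 14793376 counts and the empty plasmid libraries 18375753 to 37823857 counts, and the part of depth was not tested.

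The empty plasmid strain itself differed from F45. Of the 56 genes 25 were higher and 2 lower, against 19.3% and 20.2% of all features, with a median of 0.23. *RPS26A* had 979, 1039, 1062 and 1017 CPM with the empty plasmid, against 493, 502, 620 and 558 CPM in F45 (0.92 ± 0.10, adjusted p = 1.63e-08). *RPS15* had 909, 964, 965 and 969 CPM with the empty plasmid, against 525, 546, 563 and 573 CPM in F45 (0.79 ± 0.09). In *RPS7* the less abundant copy moved: *RPS7B* was at 175, 203, 191 and 191 CPM with the empty plasmid and at 111, 120, 129 and 123 CPM in F45 (0.65 ± 0.10, adjusted p = 3.12e-06), while *RPS7A* had a change of 0.02 ± 0.08. The 2 genes that fell were *RPS0A* and *RPS22A*. *RPS0A* had 671, 666, 667 and 684 CPM with the empty plasmid, against 785, 815, 802 and 837 CPM in F45 (−0.27 ± 0.06, adjusted p = 0.000804). *RPS22A* had 617, 616, 606 and 633 CPM with the empty plasmid, against 685, 737, 730 and 727 CPM in F45 (−0.22 ± 0.07, adjusted p = 0.00862), and its call was lost in 7 of the 8 fits that left out a library. Without the F45 library whose column header holds YSEQ164 the number higher was 16.

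The deletions of *FLO11*, a cell surface flocculin, and *CIS3*, a cell wall glycoprotein, were compared with F45 of their own batch. In *cis3*Δ, edgeR called 0 of the 56 genes higher and 0 lower, against 0.136% and 0.186% of all features. The median change was 0.24 and that over all features −0.01, 55 estimates were above 0, and 34 of the 56 had an unadjusted p under 0.05. Of all 8059 features, 3852 estimates were above 0 and 1877 had an unadjusted p under 0.05. The likelihood ratio test of edgeR called 1 gene higher, of 61 features in all, and DESeq2 called 9, of 198 features in all, and neither called any of the 56 lower. Without the F45 library numbered 2, the quasi-likelihood test called 2 higher. In *flo11*Δ, 10 of the 56 genes were higher and 0 lower, against 12.4% and 13% of all features. The share of genes called higher (10 of 56) was thus near the background. The median change was 0.23, against −0.04 over all features. Of the 56 estimates 47 were above 0, and of all 8059 features 3728 were. In 24 genes all *flo11*Δ libraries lay above all of F45, an arrangement that 21.6% of all features showed. DESeq2 called 19 higher and 1 lower, and 2 genes had a change below 0 at an unadjusted p under 0.05. *RPS2* had 1293, 1147, 1270 and 1264 CPM in *flo11*Δ, against 921, 724 and 826 CPM in F45 (0.59 ± 0.12, adjusted p = 0.00154). *RPS9B* had 524, 458, 527 and 567 CPM in *flo11*Δ, against 384, 319 and 333 CPM in F45 (0.59 ± 0.13, adjusted p = 0.00343). In both genes all *flo11*Δ libraries lay above those of F45, and leaving out a library ended the call in 1 of 7 fits for *RPS2* and in 4 of 7 for *RPS9B*. *RPS9A*, the copy that has fewer counts, had 115, 101, 106 and 108 CPM in *flo11*Δ and 141, 117 and 118 CPM in F45 (−0.22 ± 0.08, adjusted p = 0.0466), and *RPS9* was the pair that differed most. *RPS28B* was among the 10, with 199, 186, 203 and 227 CPM in *flo11*Δ and 137, 154 and 136 CPM in F45 (0.52 ± 0.10, adjusted p = 0.00153). The number higher was 2 without the *flo11*Δ library numbered 3, 1 without the clone YO2085 and 0 without the clone YO2086.

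Between the deletions, 1 gene was higher in *flo11*Δ than in *cis3*Δ and 3 were lower, against 12.8% and 12.7% of all features, with a median of −0.01. *RPS2* had 1293, 1147, 1270 and 1264 CPM in *flo11*Δ and 942, 832, 778 and 1093 CPM in *cis3*Δ (0.45 ± 0.11, adjusted p = 0.00541), and the call was lost in 6 of the 8 fits that left out a library. *RPS30B* had 343, 332, 367 and 409 CPM in *flo11*Δ, against 532, 544, 476 and 570 CPM in *cis3*Δ (−0.55 ± 0.12, adjusted p = 0.00223). *RPS27A*, a gene for a zinc finger protein of the subunit, had 138, 132, 146 and 147 CPM in *flo11*Δ, against 192, 179, 178 and 195 CPM in *cis3*Δ (−0.40 ± 0.06, adjusted p = 0.00024). The groups did not overlap in these genes. *RPS21B* had 158, 155, 155 and 157 CPM in *flo11*Δ and 209, 186, 184 and 241 CPM in *cis3*Δ (−0.39 ± 0.08), while *RPS21A* had a change of −0.09 ± 0.10. Without the *cis3*Δ library numbered 4, which had the highest share of small subunit counts in its group (3.06%), 5 genes were higher. Without either *flo11*Δ clone 0 were higher and 1 was lower.

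The 8 genes with no paralog are the sole source of their proteins. All 8 rose in disome XV, between 0.63 (*RPS3*) and 1.36 (*RPS15*), and all 8 rose in disome XVI, between 0.27 (*RPS13*) and 0.68 (*RPS15*). In the *DIG1* plasmid strain *RPS2*, *RPS3* and *RPS13* rose, and in the hemizygous strain *RPS2* and *RPS13* fell against disome XVI. Each of the 2 calls of *RPS13* was lost in 1 of 8 fits that left out a library. Introns within the coding sequence did not divide the genes in disome XV, where all 36 genes with one and 19 of the 20 without rose, with medians of 0.86 and 0.85. In disome XVI 24 of the 36 with an intron and all 20 without rose, with medians of 0.33 and 0.44. No test was made between these classes.

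In some comparisons the change went with coding length. With the *DIG1* plasmid, Pearson's r between change and coding length was 0.707 over the 56 genes (Spearman's rho 0.708), and 0.255 over 5669 ORFs. The 17 genes longer than 500 bases had a median change of 0.23 and the 39 shorter ones 0.11. For *flo11*Δ over *cis3*Δ r was 0.543 over the 56 genes and 0.235 over 5659 ORFs, and for the hemizygous strain over disome XVI it was −0.399 and −0.294. For disome XV over F45 it was −0.0849 and −0.129. These are correlations across genes, which share libraries and are not independent replicates. The part of length in the changes was not tested.

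**Figure D5:**
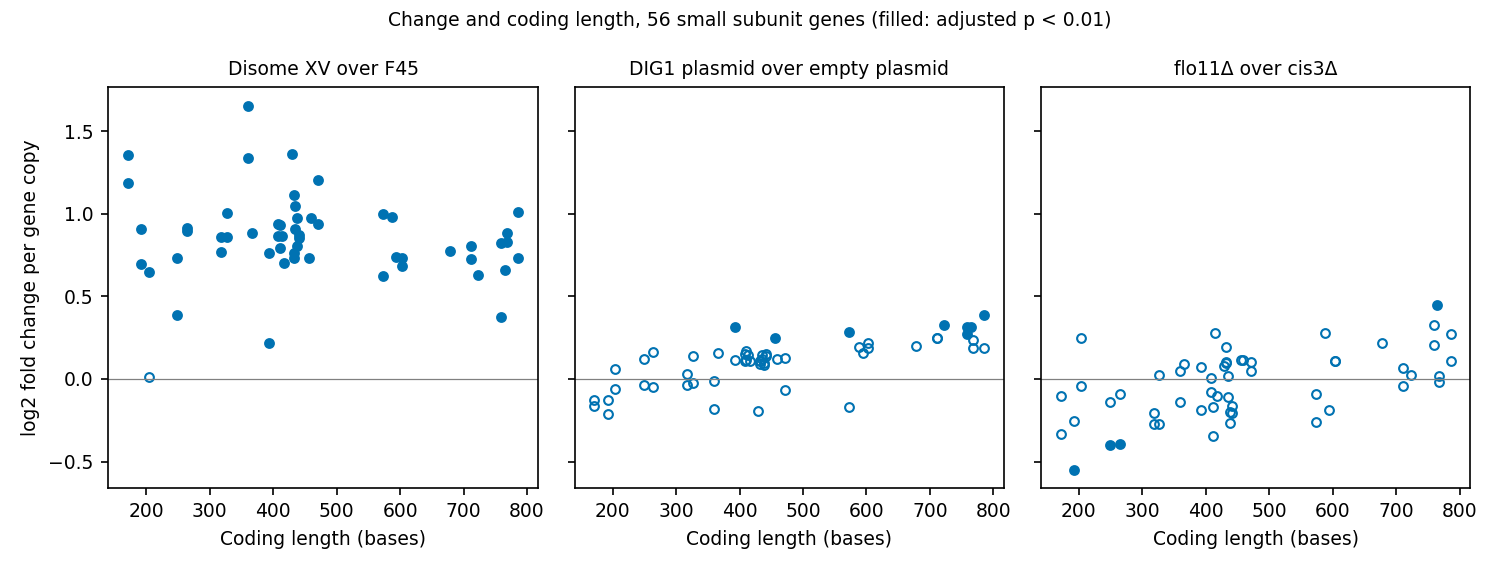
The log2 fold change per gene copy (y axis) against coding length in bases (x axis) for the 56 genes in 3 comparisons, with filled points past the threshold. With the *DIG1* plasmid the longer genes lie higher (r = 0.707), whereas disome XV shows little slope (r = −0.0849).

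Genes that act on this group were followed as well. Of 12 regulators, 1 rose and 4 fell per copy in disome XV, where 23.1% of all features rose and 28.2% fell. In disome XVI edgeR called 0 higher and 6 lower, against 21.6% and 24.4% of all features, and 2 of the 12 had a change above 0 at an unadjusted p under 0.05. *CRF1*, a corepressor of ribosomal protein genes, had 42.1 ± 4.1 CPM in disome XV and 76.8 ± 5.7 CPM in F45 (−0.88 ± 0.08, adjusted p = 5.67e-10), and 28.6 ± 4.1 CPM in disome XVI (−1.43 ± 0.08, adjusted p = 5.2e-14). *CRF1* also fell against F45 in the hemizygous strain (−1.09), with the empty plasmid (−0.55) and in *flo11*Δ (−0.76), and against the empty plasmid with the *DIG1* plasmid (−0.36). *SFP1*, an activator of the group, fell as well in disome XV (−0.63), the hemizygous strain (−0.54) and the empty plasmid strain (−0.73). The regulators *SCH9* (−0.48 ± 0.14, adjusted p = 0.00374) and *STB3* (−0.29 ± 0.08, adjusted p = 0.002) fell in disome XVI. In disome XV neither passed the test (−0.35 ± 0.14 and −0.07 ± 0.08). The repressors of ribosome synthesis *DOT6* and *TOD6* fell by 0.88 and 0.37 in disome XV and by 0.54 and 0.66 in disome XVI. *DOT6* moved the other way with the *DIG1* plasmid against the empty plasmid (0.72, adjusted p = 1.82e-06) and in *flo11*Δ against F45 (0.86, adjusted p = 0.000245). *FHL1* lies on chromosome XVI and did not pass the test per copy in either disome. As measured, *FHL1* had 58.5 ± 2.6 CPM in disome XVI, above the 34.1 ± 2.0 CPM of F45. *IFH1* fell in disome XVI (−0.33) and had a change of 0.07 ± 0.10 in disome XV, and *RAP1* rose in disome XV (0.19).

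Among 6 genes whose products bind the small subunit or its proteins, or its mRNAs, 5 rose in disome XV (background 23.1%), and 3 rose (21.6%) and 1 was lower per copy in disome XVI (24.4%). *STM1*, which clamps inactive ribosomes, had 1120 ± 153 CPM in disome XV and 431 ± 15 CPM in F45 (1.38 ± 0.08, adjusted p = 1.8e-14), and 799 ± 45 CPM in disome XVI (0.89 ± 0.08). *ASC1*, a component of the head of the subunit, rose in both disomes (0.51 and 0.59). With the *DIG1* plasmid against the empty plasmid *ASC1* rose (0.57) and *STM1* fell (−0.33). *TSR2*, the chaperone of Rps26, rose by 0.64 in disome XV and 0.52 in disome XVI. The 1 that was lower per copy was *YAR1*, the chaperone of Rps3, which lies on the doubled chromosome XVI. It had 129 ± 8.4 CPM in disome XVI and 90.8 ± 1.7 CPM in F45 (SD, n = 4 each), a level above that of F45, and −0.50 ± 0.08 per copy. In disome XV its change was −0.19 ± 0.08 (adjusted p = 0.0415).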

How the data were processed

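RNA was extracted from pooled whole colonies with hot acid phenol, and stranded mRNA libraries were sequenced as 51-base read pairs in the first batch and on a NextSeq in the second. The deposited counts give, for every feature, the read pairs that the authors placed on R64, extended with nonreference genes, using Bowtie2 2.1.0 and assigned to a strand using featureCounts 1.4.0. They are not normalised, and no filter on mapping quality was applied.

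Each batch was fitted separately in edgeR 4.0.16 (R 4.3.3), with 1 coefficient per group, and with library sizes and TMM factors taken from nuclear ORFs (without those on the chromosomes that were doubled, in the first batch). filterByExpr left 8097 and 8059 features in the 2 batches, all 56 genes included. Tests were two-sided, with glmQLFit (prior count 0.125) and glmQLFTest, and Benjamini-Hochberg adjustment covered all features tested, at a threshold of 0.01. A copy number of 2 entered the offset for genes on a doubled chromosome, except for folds given as measured, and CPM values were not adjusted for it. Each SE was obtained from the change and its F statistic. The procedure was tested on simulated data. Of simulated 1.3-fold changes it recovered 52.5% in disome XV over F45 and 16% in *flo11*Δ over F45. Of 2-fold changes it recovered 91% and 86%. The changed ORFs were drawn from all that passed the filter, and every other feature was left unchanged. The percentages therefore do not give the recovery for the 56 genes in these data. Changes of the size of most medians here can go uncalled, and in the simulation more did so in the second batch.

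Columns could be matched to groups and not to single samples of the labels. The members, gene lists, naming rule and tests were chosen with earlier results of these data known. The rule named the genes on chromosomes XV and XVI with their paralogs, the genes with no paralog, the highest and lowest gene, and in each comparison the 2 largest rises and falls past the threshold with groups apart and, among pairs with a copy past the threshold, the pair that differed most, along with called regulators and partners. Some members are counted in the totals but not reported here by name. The remaining genes given with values, such as *RPS22B* and, in *flo11*Δ, *RPS28B*, were chosen after their values had been seen. Alternatives were the likelihood ratio test, DESeq2 1.42.0, other scaling sets, centring on the median ORF, no filter, no copy number adjustment, fits to 2 groups, leaving out each library or clone, and a block.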

Additional observations from a re-analysis of the deposited data

Results flagged for a closer look

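Among 80 sets of 4 libraries examined, 7 held a library that stood apart from the other 3, where chance gives about 1 in 20. The share of small subunit counts was 4.57% in 1 hemizygous library, with the other 3 between 3.79% and 3.91%. It was 4.24% in 1 *DIG1* plasmid library, with the other 3 between 3.73% and 3.81%. In the same *DIG1* plasmid strain *RPS3* had 1713 CPM in 1 library and *RPS7B* had 181 CPM in another. In disome XVI, *RPS28A* reached 731 CPM and *RPS6B* reached 1636 CPM in the library whose column header holds YSEQ167. *RPS15* was lowest in 1 empty plasmid library, at 909 CPM.

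The direct tests between disomes and between deletions are given as differences between strains. Disome XV exceeded disome XVI in 50 genes and was below it in 1, *RPS28B* (−0.53), with the largest difference upward in *RPS26B* (0.94). *flo11*Δ exceeded *cis3*Δ in 1 gene, *RPS2* (0.45, a call lost in 6 of the 8 fits that left out a library), and was below it in 3, *RPS30B* (−0.55), *RPS27A* (−0.40) and *RPS21B* (−0.39).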

How the results depend on the processing

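The median change of the 56 genes moved by less than its spread between libraries in all 10 comparisons and under every alternative. With no copy number adjustment 4 genes were lower in disome XV than in disome XVI, and *RPS6A* (−0.37), *RPS9A* (−0.37) and *RPS23B* (−0.50) turned negative by construction. DESeq2 gave 1 lower in the hemizygous strain over F45, 14 higher with *DIG1* over the empty plasmid, 9 higher in *cis3*Δ over F45, 19 higher and 1 lower in *flo11*Δ over F45, and 4 higher and 6 lower in *flo11*Δ over *cis3*Δ. The likelihood ratio test gave 1 lower with the empty plasmid over F45 and 1 higher in *cis3*Δ. TMM over all features gave 1 lower in the hemizygous strain over F45, 1 lower with the empty plasmid and 5 higher in *flo11*Δ over F45, and no filter gave 1 lower with the empty plasmid and 6 higher in *flo11*Δ over F45. Fits to the 2 groups alone gave 5 lower in the hemizygous strain over disome XVI, 13 higher with *DIG1* and 17 higher in *flo11*Δ over F45. Without clone YO2085 and without clone YO2086, 1 and 0 were higher in *flo11*Δ over F45, and 0 were higher and 1 lower in *flo11*Δ over *cis3*Δ in both cases. Without clone YO2088, 0 were higher there. These clone fits were chosen after seeing the data, and the cause of each shift was not tested.

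Leaving out each library in turn gave 5 to 8 lower in the hemizygous strain over disome XVI, 16 to 24 higher and 1 to 2 lower with the empty plasmid over F45, 0 to 2 higher in *cis3*Δ over F45, 2 to 10 higher in *flo11*Δ over F45, and 0 to 5 higher and 3 to 5 lower in *flo11*Δ over *cis3*Δ. The other counts stayed within 1.5 times. Of the single-gene values under all alternatives 3028 kept their direction and side of the threshold, 43 passed it newly, 56 no longer passed it and 3 were reversed.

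The code in the column headers stood in for the replicate block, a choice made after seeing the data, because no column carries a replicate number of the labels. Libraries with the same code had a median correlation of deviations of 0.132 in batch 1 and 0.0582 in batch 2. Those with different codes had −0.0409 and −0.0432, and 15 of 24 and 5 of 11 libraries correlated best with their own code. Libraries of the same code were thus somewhat more alike, most clearly in batch 1. The main fits hold no block, as no label says what the codes stand for. With the block 55 genes were higher in disome XV over F45, 44 in disome XVI over F45, 35 higher and 1 lower in the hemizygous strain over F45, and 3 higher and 5 lower in *flo11*Δ over *cis3*Δ.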
